A study of Mus musculus with 8 samples.

Results

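The genes described here encode albumin, its relatives and other abundant carrier proteins that the liver secretes into blood. They were chosen by name as Alb, Afp, Afm, Gc, Ttr, Ahsg, Fetub and Rbp4. No rule on measured values was used, but earlier results of these data were known. Of these 8 genes, 7 have a probe set with exactly 1 gene symbol, out of 22180 such genes on the array, and Gc was not analysed here. Where a gene has several such probe sets, the brightest on average stands for it.

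The values come from AML12 cells, a line of hepatocytes established from a mouse that carried a human TGF-alpha transgene. Wild-type cultures (n = 4) were compared with cultures of VWA8-null cells (n = 4), in which CRISPR/Cas9 had been used to delete VWA8, a mitochondrial ATPase gene. Both groups were differentiated and shared a DMEM/F12 medium with 10% serum, to which dexamethasone (40 ng/ml), selenium (5 ng/ml), and insulin and transferrin (0.005 mg/ml of either) had been added. Total RNA of each culture went on 1 Affymetrix mouse array. How many knockout clones there were is not stated in the labels, so an effect of the deletion and a difference between clones cannot be told apart. The design text speaks of separate cultures, and p-values measure the spread between these cultures only. A lower or higher signal in such bulk RNA can come from fewer cells that make the transcript or from less transcript per cell, and these cannot be told apart.

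Albumin is the most abundant protein of plasma and carries fatty acids, bilirubin and drugs. Alpha-fetoprotein (Afp) and afamin (Afm), a carrier of vitamin E, arose from the same ancestor and sit beside Alb in the genome. In the liver Afp is high before birth and is then shut off, while Alb stays on, so their ratio is a classical sign of hepatocyte maturity. Fetuin-A (Ahsg) and fetuin-B (Fetub) are cystatin-related proteins, the first an inhibitor of calcification and the second of the protease ovastacin. Transthyretin (Ttr) carries thyroid hormone and also holds Rbp4, the retinol carrier, in the circulation.

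Most of the carrier genes were higher in the knockout cells, and Afp was the exception. In the limma test across all genes, 6 of the 7 rose and none fell, with Afp short of the threshold of 0.05 for the adjusted p-value. Of all 22180 genes, 20.9% passed by the same rule, 10.4% higher and 10.4% lower. The median log2 fold change, knockout minus wild type, was 0.57 over the 7 genes and -0.003 over all genes. Rbp4 and Ahsg rose most, by 0.92 and 0.82, and Alb and Ttr least, by 0.23 and 0.24. In all 7 genes the 4 arrays of one genotype lay beyond the 4 of the other, 6 with the knockout higher and 1, Afp, with the knockout lower. Over all genes the groups did not overlap in 26.1%, with the knockout wholly above in 12.9% and wholly below in 13.2%. The exact permutation test over the 70 arrangements of the arrays gave a two-sided p = 0.0286 for each of the 7, and no smaller value is possible with 4 arrays a group. Each of the 7 has a single probe set, so none of these values is backed by another.

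**Figure D1:**
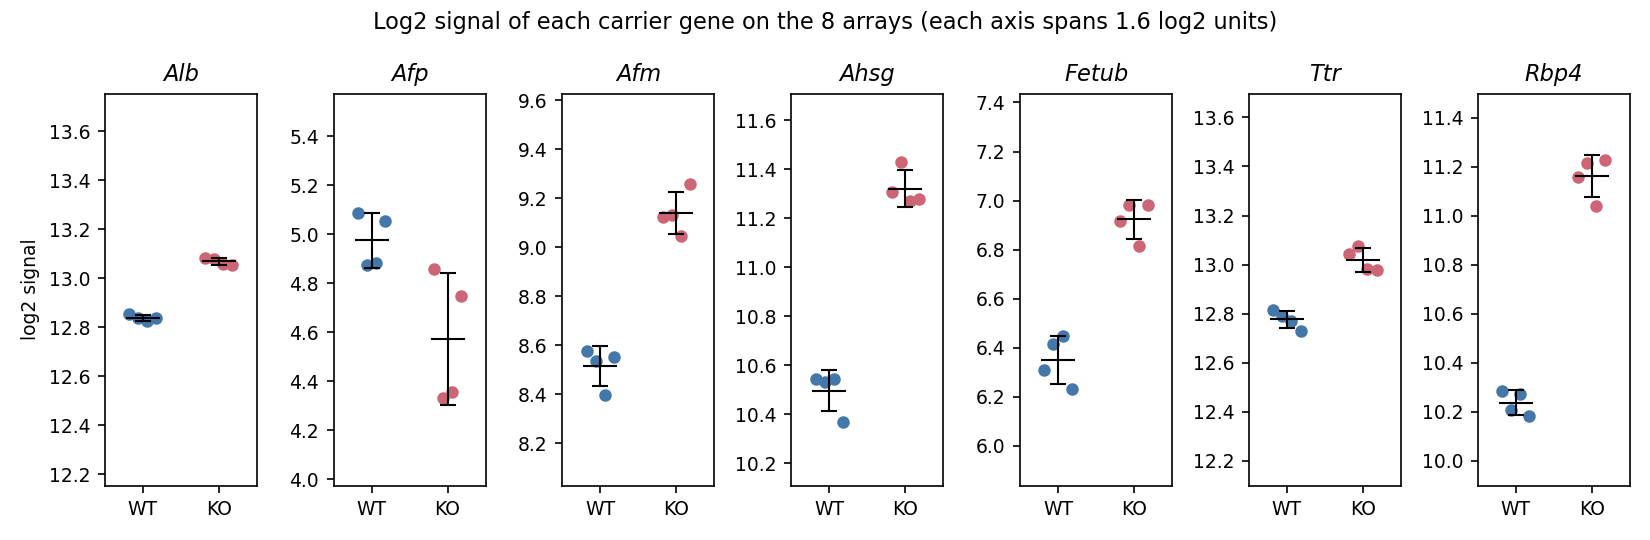
Log2 signal of the 7 carrier genes on each array (points), with the mean and SD of 4 wild-type (WT) and 4 knockout (KO) arrays; each vertical axis spans the same range. The groups do not overlap for any gene, and for Afp the lowest wild-type array (4.88) and the highest knockout array (4.86) nearly meet.

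Alb, which encodes albumin, was among the brightest signals on the arrays and rose slightly. The wild-type arrays read 12.85, 12.84, 12.82 and 12.84 on the log2 scale and the knockout arrays 13.08, 13.08, 13.06 and 13.05. All knockout arrays lay above all wild-type arrays, and the arrays of a genotype were close together. The mean was 12.84 ± 0.012 in wild-type and 13.07 ± 0.014 in knockout cells (SD, n = 4 each), a 1.17-fold rise or 0.23 ± 0.048 on the log2 scale (limma SE, adjusted p = 0.00863). The moderated SE is wider than the unmoderated one of 0.009, because limma draws the small spread of a gene towards that of all genes. The 30 genes with a position nearest to Alb on each side of it, counting genes brighter than the median gene, had a median change of -0.16, and with that median subtracted the rise of Alb was 0.39 (adjusted p = 0.000522).

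Afp, the fetal relative of albumin, gave a signal near that of the median gene and went the other way. Its mean over all arrays was 4.77. The brightest marker of stellate cells and fibroblasts had 5.36 and that of macrophages and leukocytes 5.52. Whether the Afp signal stood above background was not tested. The wild-type arrays read 5.09, 4.88, 4.88 and 5.06 and the knockout arrays 4.86, 4.33, 4.36 and 4.75. The groups did not overlap but were only 0.017 apart, with knockout replicates 1 and 4 close to the wild-type arrays and replicates 2 and 3 lower. The mean was 4.98 ± 0.112 in wild-type and 4.57 ± 0.270 in knockout cells (SD, n = 4 each), a log2 difference of -0.40 ± 0.130 (limma SE, 95% interval -0.70 to -0.11) with an adjusted p of 0.0600. The interval is not adjusted for the number of genes tested. The adjusted p ran from 0.0200 to 0.245 over the 18 alternative analyses, 5 of which put Afp past the threshold. One of these left out knockout replicate 1, which gave -0.50 (adjusted p = 0.0251), while Afp measured relative to its 60 neighbours, as done for Alb, stood at -0.24 (adjusted p = 0.245).

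Afm, which encodes afamin, rose clearly. In wild-type cells the 4 arrays gave 8.58, 8.53, 8.40 and 8.55 and the knockout arrays 9.12, 9.13, 9.05 and 9.26. The lowest knockout array stood 0.47 above the highest wild-type array. The mean went from 8.51 ± 0.081 to 9.14 ± 0.087 (SD, n = 4 each), a 1.54-fold rise or 0.63 ± 0.068 (limma SE, adjusted p = 0.00024).

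The signals of the 3 genes of the albumin cluster had different changes on the same arrays. Between each pair the difference of log2 values was taken within each array and compared between genotypes with the exact permutation test, adjusted over the 5 pairs of carrier genes that could be tested. The Alb signal moved away from the Afp signal by 0.63 ± 0.144 (SE), from a mean difference of 7.86 ± 0.103 in wild-type to 8.50 ± 0.269 in knockout arrays (SD, n = 4 each). The Afm signal rose by more than the Alb signal (Alb minus Afm changed by -0.39 ± 0.058), but Alb lies near the top of the range, where a signal can rise less than the RNA does, and this was not tested. Afp minus Afm changed by -1.03 ± 0.124. All 5 pairs reached an exact permutation p of 0.0286, the smallest possible, and the adjusted p was the same. For Alb minus Afp and Afp minus Afm this p adds nothing to the single genes. Their groups were already separate, in opposite directions, so the differences could not overlap. A difference in signal between probe sets is not a difference in transcript number, and only its change is compared here.

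The promoters of these neighbours are shown because the genes lie side by side and their signals changed by different amounts. Each run holds 250 bases before and 50 after the annotated start of the gene, 5′ to 3′, from RefSeq on GRCm38.p6, and all are on the plus strand. Capitals mark matches, on either strand, to a C/EBP site (TTGCNNAA) and to a TATA box (TATAAA).
Alb, chr5:90460620-90460919: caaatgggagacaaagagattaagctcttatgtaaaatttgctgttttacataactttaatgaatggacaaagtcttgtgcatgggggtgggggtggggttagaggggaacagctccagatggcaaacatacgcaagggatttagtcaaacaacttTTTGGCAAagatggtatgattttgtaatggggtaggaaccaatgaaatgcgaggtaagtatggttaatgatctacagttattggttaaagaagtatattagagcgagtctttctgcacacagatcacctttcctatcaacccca
Afp, chr5:90490464-90490763: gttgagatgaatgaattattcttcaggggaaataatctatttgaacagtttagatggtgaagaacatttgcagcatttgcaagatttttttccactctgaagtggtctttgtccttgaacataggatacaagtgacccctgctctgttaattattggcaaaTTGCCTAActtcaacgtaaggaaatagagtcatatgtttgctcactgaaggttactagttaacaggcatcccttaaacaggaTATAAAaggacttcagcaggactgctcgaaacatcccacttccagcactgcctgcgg
Afm, chr5:90518699-90518998: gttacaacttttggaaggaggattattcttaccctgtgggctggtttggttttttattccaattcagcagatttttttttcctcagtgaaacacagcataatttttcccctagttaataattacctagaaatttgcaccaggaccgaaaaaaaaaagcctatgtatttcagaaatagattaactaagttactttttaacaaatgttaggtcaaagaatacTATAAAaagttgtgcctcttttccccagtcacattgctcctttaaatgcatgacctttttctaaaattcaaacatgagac
Alb and Afp hold a C/EBP match, which 10.8% of the 32851 RefSeq promoter windows of the same length hold, and Afm does not. TATAAA was matched in Afp and Afm and in 13.6% of all windows. Of the other carrier genes with a promoter in the table, Ahsg and Rbp4 held the C/EBP match and Fetub and Rbp4 the TATA box. Matches to a FOXA site (TGTTTAC, in 3.65% of all windows) lay in Fetub and Rbp4, and an HNF4 site (CAAAGTCCA, in 0.475%) was matched in none of the 6 genes. Fetub and Rbp4 have 2 windows each, and in both genes the FOXA match lay in a different window from the other matches. The shares are for single windows. These are matches of letters in a window and not evidence of binding. Ttr had no promoter in the table.

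The gene order around the cluster sets these changes in place. Among the 10 measured genes that flank Alb, Afp and Afm, 5 to a side, 1 rose and 3 fell. Their median change was 0.04, and of all genes 10.4% passed in each direction. The one that rose is the direct neighbour of Afm, Albfm1, a further albumin relative, whose log2 signal went from 5.29 ± 0.215 to 6.18 ± 0.109 (SD, n = 4 each) or by 0.89 ± 0.110 (limma SE, adjusted p = 0.000478). Beyond it Rassf6 stood at -0.32 ± 0.080, the neutrophil chemokine Cxcl5 at -0.82 ± 0.179 and the platelet chemokine Ppbp at -0.35 ± 0.095, all past the threshold. The call was lost in 4 of the 18 alternatives for Rassf6 and in 7 for Ppbp, which was also dim. The 5 genes before Alb lay between -0.04 and 0.15, and none passed.

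**Figure D2:**
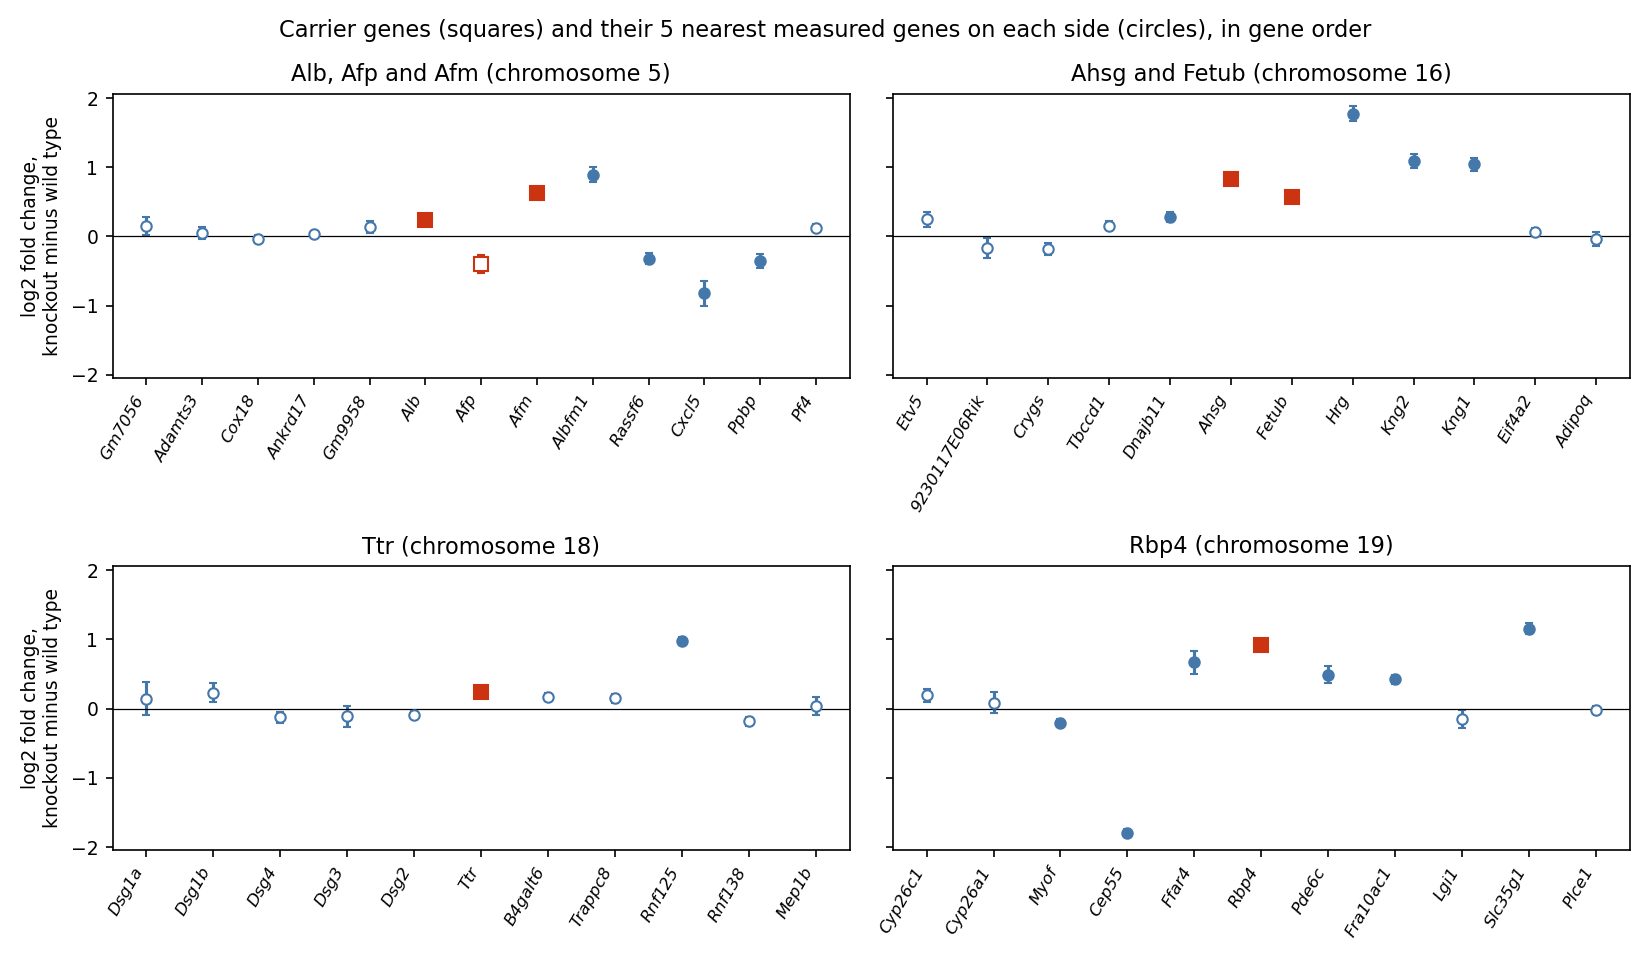
Log2 fold change (knockout minus wild type, bars ± SE) of the carrier genes (red squares) and the 5 nearest measured genes on each side (blue circles) in gene order; filled symbols passed the adjusted p of 0.05. Hrg, Kng2 and Kng1 stand above Ahsg and Fetub on chromosome 16, while the genes before Alb lie near 0.

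Ahsg, which encodes fetuin-A, rose with the largest gap between genotypes after Rbp4. The wild-type arrays read 10.54, 10.53, 10.54 and 10.37 and the knockout arrays 11.31, 11.43, 11.27 and 11.28. Wild-type replicate 4 was the low one of its group, and the lowest knockout array was 0.73 above the highest wild-type array. The mean went from 10.50 ± 0.085 to 11.32 ± 0.074 (SD, n = 4 each), a 1.77-fold rise or 0.82 ± 0.067 (limma SE, adjusted p = 4.4e-05).

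Fetub, which encodes fetuin-B, rose less. Wild-type arrays gave 6.31, 6.41, 6.45 and 6.23 and the knockout arrays 6.92, 6.98, 6.81 and 6.98. The groups were 0.37 apart at their nearest arrays. The mean went from 6.35 ± 0.098 to 6.92 ± 0.080 (SD, n = 4 each), a 1.49-fold rise or 0.57 ± 0.071 (limma SE, adjusted p = 0.000484). Ahsg minus Fetub changed by 0.25 ± 0.048 within arrays (exact permutation p = 0.0286, adjusted p = 0.0286, n = 4 each), so the signals of these neighbours rose by unequal amounts. Fetub was much dimmer than Ahsg, and how far signal level shaped this difference was not tested.

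The 3 genes directly after Fetub on chromosome 16, Hrg, Kng2 and Kng1, encode other plasma proteins with cystatin domains and rose too, while the next, Eif4a2 and Adipoq, stood at 0.06 and -0.03 and did not pass. Hrg, which encodes histidine-rich glycoprotein, went from 3.33 ± 0.179 to 5.11 ± 0.133 (SD, n = 4 each), by 1.77 ± 0.104 (limma SE, adjusted p = 7.06e-06). Its wild-type signal was below that of the median gene. The kininogen genes Kng2 and Kng1 rose by 1.09 ± 0.104 and 1.04 ± 0.093, but they are close copies whose probes may share signal. On the other side Dnajb11, a chaperone of the endoplasmic reticulum, rose by 0.28 ± 0.075, a call lost in 6 of the alternative analyses. Of the 10 neighbours of this locus 4 rose and none fell, beside 10.4% of all genes in each direction.

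Ttr, which encodes transthyretin, was as bright as the brightest genes and rose slightly. Wild-type cultures gave 12.82, 12.79, 12.77 and 12.73 and the knockout arrays 13.04, 13.08, 12.98 and 12.98. The groups did not overlap and were 0.16 apart at their nearest arrays. The mean went from 12.78 ± 0.036 to 13.02 ± 0.048 (SD, n = 4 each), a 1.18-fold rise or 0.24 ± 0.054 (limma SE, adjusted p = 0.0113). Relative to its 60 neighbours on chromosome 18 the rise was 0.16, short of the threshold (adjusted p = 0.0747; 5.23e-06 to 0.0747 over the alternatives). Among its 10 nearest measured genes only Rnf125, a ubiquitin ligase, passed, at 0.98 ± 0.061, beside 20.9% of all genes.

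Rbp4, which encodes the plasma carrier of retinol, had the largest rise of the 7 genes. In wild-type cells the signal was 10.29, 10.21, 10.27 and 10.18 and in knockout cells 11.16, 11.21, 11.04 and 11.23. Every knockout array was at least 0.75 above every wild-type array. The mean went from 10.24 ± 0.051 to 11.16 ± 0.086 (SD, n = 4 each), a 1.90-fold rise or 0.92 ± 0.063 (limma SE, adjusted p = 1.69e-05). Ttr and Rbp4, whose proteins circulate as a complex, differed in the change of their signals: Ttr minus Rbp4 went from 2.54 ± 0.036 to 1.86 ± 0.081 (SD), or by -0.68 ± 0.044 (exact permutation p = 0.0286, n = 4 each). Ttr is near the top of the range, as Alb is, and how much that limited its rise was not tested.

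The neighbours of Rbp4 on chromosome 19 went both ways, 4 of 10 higher and 2 lower. Cep55, which acts at the end of cell division, fell by 1.80 ± 0.061 (limma SE), and Myof, which encodes the membrane protein myoferlin, stood at -0.20 ± 0.050. Slc35g1 rose by 1.15 ± 0.079, the fatty acid receptor gene Ffar4, whose groups overlapped, by 0.67 ± 0.171, Pde6c by 0.49 ± 0.122 and Fra10ac1 by 0.42 ± 0.065. Ffar4 lost its call in 5 of the alternatives, Myof in 3 and Pde6c in 2. Over all 4 loci 10 of 40 neighbours rose and 5 fell, with a median of 0.10, beside 10.4% of all genes in each direction. With 10 genes taken on each side, 17 of 80 rose and 15 fell.

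**Figure D3:**
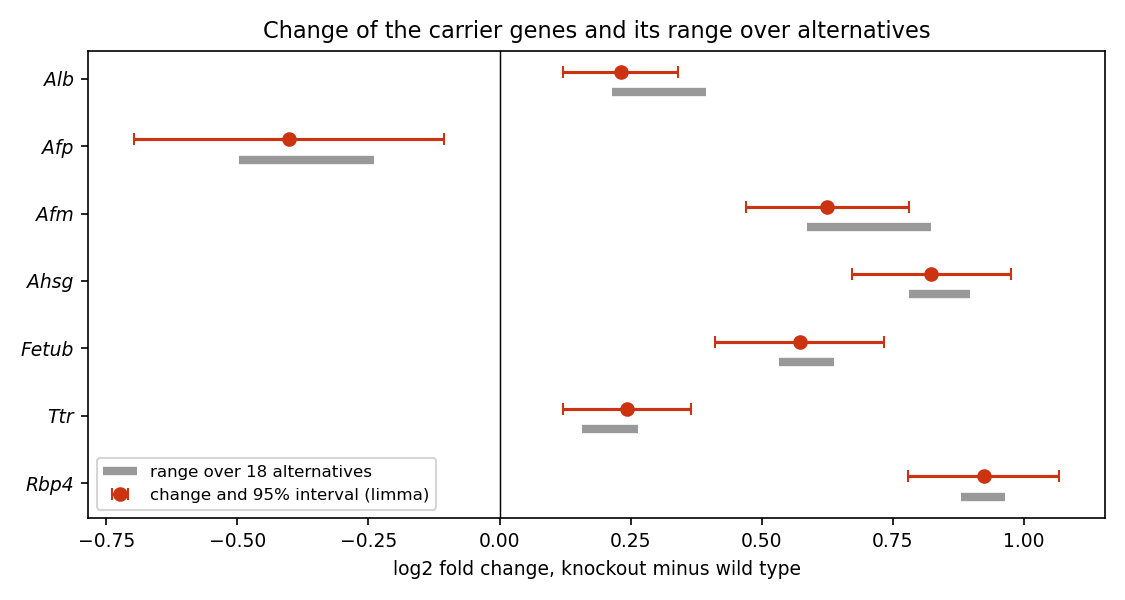
Log2 fold change of each carrier gene with its 95% interval from limma (red), and the range of the estimate over the 18 alternative analyses (grey). The intervals of Alb and Ttr lie below those of Afm, Ahsg, Fetub and Rbp4, and that of Afp is the widest and lies below 0.

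The size of these changes has to be read with the signal level. Alb and Ttr ranked 2 and 4 of 22180 genes by mean signal, the bright end at which a rise may be understated. Of the 30 genes with a wild-type mean above 12, 5 rose and 2 fell, and the largest rise among them was 0.34, that of Apob, the main protein of very low density lipoprotein. Ttr had the third and Alb the fourth largest rise of the 30. The other genes above 12 that rose were Cp, which encodes ceruloplasmin, by 0.29 ± 0.057 and the potassium channel gene Kcnma1 by 0.17 ± 0.052. The limma adjusted p of Kcnma1 was 0.0463, close to the threshold. The 2 that fell were Cd81 at -0.31 and Ly6e at -0.36, both surface proteins. Kcnma1, Cp, Apob, Cd81 and Ly6e were named after their values were seen. How far the top of the range was compressed was not tested.

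Beside the 200 genes nearest to each in mean signal, the 6 carriers that rose took different places. Of the 200 nearest to Alb, 42.0% passed the threshold and 41 rose by more than Alb did, and 39 of those nearest to Ttr rose by more than Ttr. Because Alb and Ttr lie at the bright end, nearly all of these genes were dimmer, down to a mean of 10.82. They are therefore not matched to Alb and Ttr in signal. For Rbp4, 7 of the 200 nearest genes rose by more, for Ahsg 7, for Afm 5 and for Fetub 17. Afp sat among genes of which 17.5% passed and whose median pooled SD was 0.17, against 0.05 around Alb. The pooled SD of Afp itself was 0.21 and that of Alb 0.013. In the brightest 1% of all genes 43.0% passed, 27.6% higher and 15.4% lower. Among genes dimmer than the median 4.76% passed, 2.25% higher and 2.52% lower.

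**Figure D4:**
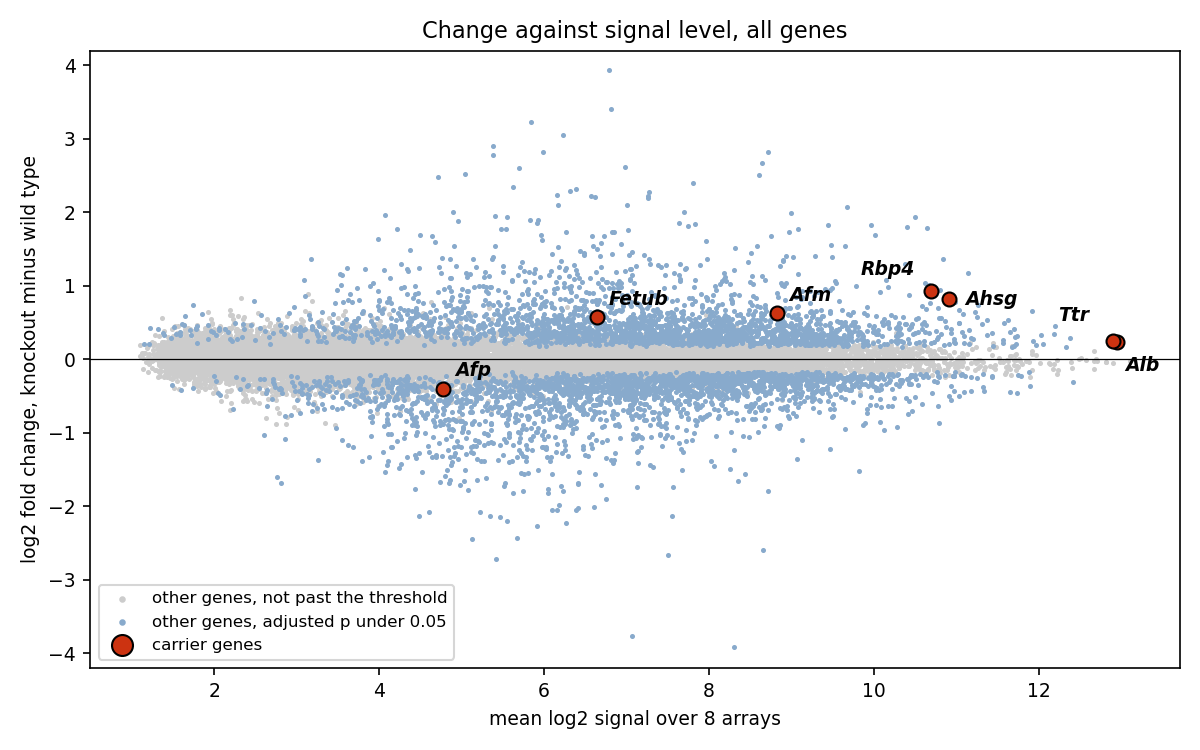
Log2 fold change (knockout minus wild type) against mean log2 signal for 22180 genes, with the 7 carrier genes in red, genes past the adjusted p of 0.05 in blue and the others in grey. Alb and Ttr lie at the bright end, where the largest rise above a wild-type mean of 12 was 0.34, and Afp lies near the middle of the signal range.

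Other carriers that the liver secretes were often higher as well. Of 20 measured genes on a list of such carriers, 11 rose and 2, Ambp and Lcn2, fell, beside 10.4% of all genes in each direction. The median was 0.47 beside -0.003 over all genes. Hp, which encodes the hemoglobin carrier haptoglobin, rose by 1.78 ± 0.062 (limma SE), Apoh, a phospholipid-binding glycoprotein, by 1.54 ± 0.070, and the HDL apolipoprotein gene Apoa1 by 0.73 ± 0.056. Hrg, Kng1, Kng2 and Albfm1 are also on this list. Ambp, which encodes alpha-1-microglobulin and bikunin, stood at -0.40 ± 0.059 and Lcn2, a carrier of iron-binding siderophores, at -0.64 ± 0.062. Thyroxine-binding globulin, another thyroid hormone carrier (Serpina7), was at -0.16 and did not pass (adjusted p = 0.259).

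Transcription factors known to act on Alb and Afp were mixed. Of 24 measured, 7 rose and 2 fell, with a median of 0.08, beside 10.4% of all genes in each direction. Only 2 of the 24 were dimmer than the median gene, so all genes are a dimmer set than this list. Among genes brighter than the median gene, taken in groups of 2218 by mean signal, 24.8% to 44.7% passed in either direction. Rxra, a partner of many nuclear receptors, rose by 0.76 ± 0.068 and the forkhead factor Foxa3 by 0.73 ± 0.067, while Foxa1 of the same family stood at -0.70 ± 0.079. Hnf4a, a nuclear receptor of hepatocytes, rose to 9.44 ± 0.040 (SD, n = 4), by 0.45 ± 0.055 (limma SE, adjusted p = 0.000466). Cebpa rose by 0.44 ± 0.071, whereas Cebpb, which binds the same motif, stood at -0.43 ± 0.076. Zhx2 and Zbtb20, both repressors of Afp in the adult liver, were at -0.10 ± 0.058 and -0.05 ± 0.069 and did not pass (adjusted p = 0.323 and 0.682). Trp53 was not analysed here.

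Genes that are on in fetal liver with Afp did not move one way. Of 13 measured, 2 rose and 3 fell, with a median of 0.04, beside 10.4% of all genes in each direction. Hmga2, a chromatin protein of growing tissue, went from 8.29 ± 0.075 to 7.40 ± 0.082 (SD, n = 4 each), and the RNA-binding Igf2bp3 and the surface protein gene Cd24a stood at -0.60 ± 0.059 and -0.44 ± 0.054 (limma SE). Igf2, the fetal growth factor, rose by 0.99 ± 0.086, and Lpl, the lipoprotein lipase, rose by 0.69 ± 0.145. Dlk1 and Gpc3 were dimmer than the median gene in both groups, at -0.05 and 0.04, and did not pass.

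Receptors that bind or take up the carriers rose in 4 of 13 cases and none fell, beside 10.4% of all genes in each direction. The median was 0.10. Fcgrt, the neonatal Fc receptor that rescues albumin from breakdown, went from 8.98 ± 0.149 to 9.56 ± 0.120 (SD, n = 4 each), by 0.58 ± 0.092 (limma SE, adjusted p = 0.00196). B2m, its light chain, differed by -0.14 ± 0.053, short of the threshold (adjusted p = 0.0917), although 4 alternatives put it past. Asgr2, a subunit of the receptor that clears glycoproteins, rose by 1.53 ± 0.086, the endocytic receptor gene Lrp1 by 0.65 ± 0.054 and its adaptor Dab2 by 1.23 ± 0.132. Asgr1, which encodes the other subunit of the Asgr2 receptor, was measured and did not pass. The retinol uptake receptors Stra6 and Stra6l gave 4.61 and 4.27 as means over all arrays, near the median gene, and neither passed.

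Genes that handle retinoids, vitamin D and thyroid hormone, the cargo of Rbp4 and Ttr among them, rose in 7 of 30 cases and fell in 1. The median was 0.07, and of all genes 10.4% passed in each direction. Rbp2, an intracellular retinol-binding protein, rose by 1.03 ± 0.075 (limma SE) and Dhrs3, which returns retinal to retinol, by 0.51 ± 0.068. Rdh10, which makes retinal from retinol, stood at -0.41 ± 0.062. Thrb, the thyroid hormone receptor beta, rose by 1.18 ± 0.092 and Cyp27a1, a sterol and vitamin D hydroxylase, by 0.63 ± 0.070. Of the 30 genes, 15 were dimmer than the median gene.

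**Figure D5:**
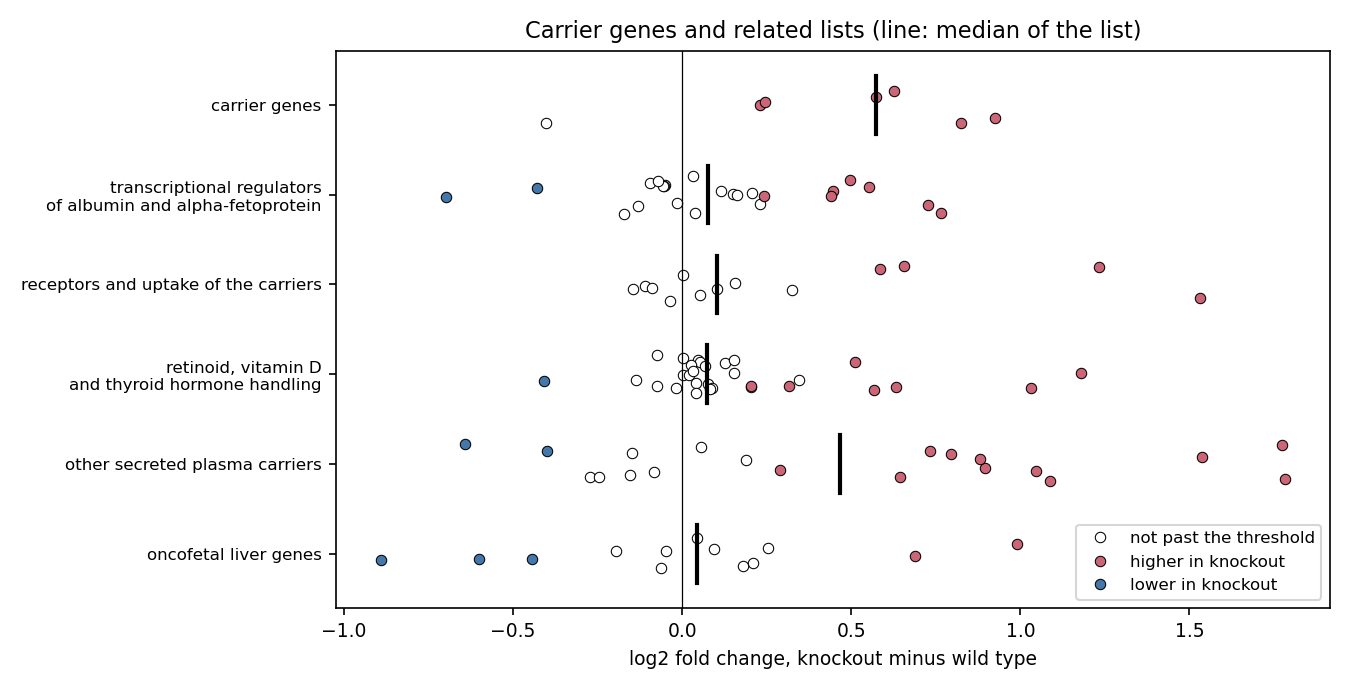
Log2 fold change (knockout minus wild type) of the carrier genes and of 5 related lists, 1 point per gene, red where higher and blue where lower at an adjusted p of 0.05 in limma, with a line at each median. The medians were 0.57 for the carriers and 0.47 for the other secreted carriers, and from 0.04 to 0.10 in the other lists.

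Markers of other liver cells give the setting of these results. Hepatocyte markers outside the carriers rose in 11 of 12 cases, with a median of 1.09, where 10.4% of all genes rose and 10.4% fell. The marker that did not pass was Asgr1. Hnf4a, Apoa1, Apoa2 and Asgr1 are also on lists described above, so these counts are not separate. Markers of stellate cells and fibroblasts (8 of 9), endothelium (7 of 7) and macrophages and leukocytes (6 of 7) were dimmer than the median gene, and none of these 23 passed the threshold. Of 6 cholangiocyte markers, Sox9 and Krt19 were bright at 10.1 and 8.56, and 2 fell, Krt7 at -0.52 ± 0.083 and Cftr at -0.92 ± 0.108. Most of the summed linear signal of the 6 came from Sox9 and Krt19, so it says little about the other markers. The sum ranged from 1552 to 1646 in wild-type and from 1530 to 1647 in knockout arrays, and Epcam was dim at 2.38. Their part in the changes of the carriers was not tested. Vwa8 itself fell from 8.95 ± 0.041 to 5.18 ± 0.116 (SD, n = 4 each), and array medians lay between 4.27 and 4.33.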

How the data were processed

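The deposited values are 1 log2 signal per probe set and array, as the authors processed them before deposit. The log2 scale was read from the values, and how the signals were background-corrected, normalized and summarised is not stated in the labels. Of 41345 probe sets, 23521 have exactly 1 gene symbol in the platform annotation, 1814 have several and 16010 have none listed; the single-symbol sets cover 22180 genes. Genotypes were compared in limma 3.58.1 (R 4.3.3, lmFit and eBayes), with no term besides genotype, on all 8 arrays, and two-sided p-values were adjusted over all genes by Benjamini-Hochberg. Within-array differences of gene pairs were compared by the exact permutation test (scipy 1.17.1), and of 8 planned pairs the 3 with Gc were not run. The number of arrays limits the precision. A simulation changed 200 of the 22180 genes. There the fit recovered 55.2% of changes of 0.5, 85.1% of changes of 1 and 98.5% of changes of 2 log2 units. Of 168 calls there, 9 were false. In the data 4626 genes passed, so the adjusted threshold was stricter in the simulation and these shares do not carry over. Small changes can be missed, but how often in these data was not tested.

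The members, gene lists, tests and alternatives were chosen with earlier results of these data known. Besides the carriers, the text names Vwa8, up to 4 genes with the smallest adjusted p in each related list, single exceptions to a list's direction, Hnf4a, Cebpa, Zhx2, Zbtb20, Trp53 and Fcgrt whatever their values, locus neighbours that passed, and the 3 genes most like Alb and Afp. Other named genes were chosen after their values were seen. Gene order came from a RefSeq table (GRCm38.p6) that holds 21994 of the genes by Entrez identifier. The 18 alternatives were quantile normalization, median centring, the replicate block, array weights, robust variances with a trend, leaving out the dimmest 25% or 50% of genes, averaging the probe sets of a gene, admitting probe sets with several symbols, subtracting the median of 30 neighbours a side, and omitting each array.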

Additional observations from a re-analysis of the deposited data

Results flagged for a closer look

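Ahsg in wild-type replicate 4 read 10.37, while the other wild-type arrays lay between 10.53 and 10.54. Its gap to the nearest array was 0.944 of the range of the group, above Dixon's 95% critical value for 4 samples. It is the only one of 104 groups of 4 arrays looked at, over 52 genes, that exceeded the value, where chance alone gives about 1 in 20. Leaving out single arrays kept the change of Ahsg between 0.78 and 0.84.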

How the results depend on the processing

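The rises of Alb, Afm, Ahsg, Fetub and Rbp4 kept their direction and stayed past the threshold in all 18 alternatives, and that of Ttr in 17. Relative to its neighbours Ttr stood at 0.16. The cause was not tested. Afp kept its direction and passed with an intensity trend, with the replicate block and without the dimmest 25% or 50% of genes, at -0.40 in each, and then 1 carrier was lower in place of 0. Leaving out single arrays put Afp between -0.50 and -0.32 and the count of carriers lower between 0 and 1. Receptors had 1 gene lower, B2m, in place of 0 with the trend, the subtraction and both filters on dim genes. Among locus neighbours, the replicate block left 2 lower in place of 5, leaving out single arrays gave 7 to 10 higher and 3 to 6 lower, and taking 10 genes on each side gave 17 higher and 15 lower of 80. The other counts stayed within 1.5 times. Of 45 other genes named by the rule given above, 10 lost a call in at least 1 alternative and none reversed. Genes named outside that rule, among them Kcnma1, Cp, Apob, Ambp and Lcn2, are not in this count. Same-numbered arrays of the 2 genotypes deviated together with correlations between -0.002 and 0.059, so the numbers were not taken as pairs. Under the replicate block the exact sign-flip test left 0 of the 5 pairs of carriers past the threshold, since 4 pairs of arrays cannot give less than 0.125. With 7 arrays the permutation test cannot reach 0.05, so pairs have values without a test there: 0.55 to 0.72 for Alb minus Afp and -0.71 to -0.64 for Ttr minus Rbp4.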

Other observations

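By the mean absolute difference over the 8 arrays of log2 values centred on each gene's own mean, taken over 11089 genes brighter than the median gene, the genes most like Alb were Txndc15, Pcmtd2 and Cpd. Txndc15 encodes a thioredoxin-domain protein and Cpd a carboxypeptidase of the secretory pathway. Their mean absolute differences from Alb were 0.0155, 0.0155 and 0.0160, and their log2 fold changes 0.23, 0.22 and 0.22. Each of the 3 lost its call in at least 1 alternative, and with the median change of its neighbours subtracted Pcmtd2 stood at 0.023 and Cpd at 0.13, where Alb stood at 0.39. The genes most like Afp were Dpep2, Dpysl2 and Zwint, a kinetochore gene, at mean absolute differences of 0.0798, 0.104 and 0.105. Dpysl2 stood at -0.59 and Zwint at -0.33, both past the threshold in limma, while Dpep2 at -0.31 did not pass. With the neighbours' median subtracted Zwint stood at -0.19 and lost its call (adjusted p = 0.109), and with the probe sets of a gene averaged Dpep2 passed at -0.34 (adjusted p = 0.0163).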
